A study of Mus musculus with 27 samples.

Results

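The Meis, Pbx and Pknox genes encode homeodomain factors of the TALE class, whose homeodomain carries an additional loop of amino acids. A list of 8 of them (Meis1, Meis2, Meis3, Pbx2, Pbx3, Pbx4, Pknox1 and Pknox2) was followed by gene symbol in RNA-seq libraries of mouse limb buds and of limb bud-like tissues grown from embryonic stem (ES) cells. They are 8 of the 23279 genes in the table, and all 8 have a row there. As background, Meis and Pknox proteins bind DNA together with Pbx partners, and they act as cofactors of Hox proteins. In the growing limb bud Meis1 and Meis2 are known to mark the proximal part, which lies next to the trunk. Retinoic acid from the flank has been proposed to keep them on, and FGF from the tip of the bud is known to turn them off distally.

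The study compared mesenchyme of ES-derived limb buds with embryonic tissues in 27 libraries, 3 for each of 9 groups. ES-FLB (forelimb-type) and ES-HLB (hindlimb-type) were made from the same heterozygous reporter line, EB5 Hand2::GFP +/-, as aggregates given BMP4 and Matrigel and later a BMP inhibitor and Wnt3. ES-FLB received retinoic acid and ES-HLB an antagonist of retinoic acid, and from both, cells positive for the Hand2 reporter were sorted on day 9 of culture. Embryonic tissues came from the Slc:ICR strain without a named sorting step: forelimb buds (FLBs) and hindlimb buds (HLBs) labelled E10.0 (called early here), FLBs and HLBs at E10.5, and, all at E10.5, the branchial arch (BA), the tail bud (TB) and heart tissue (Ca). The labels give both early limb buds the same stage, whereas the text of the study gives the early HLBs a later stage than the early FLBs. Limb type and stage therefore cannot be told apart between the early groups. Levels are given in CPM (reads of a gene for a library total of 1000000), scaled between libraries by a trimmed mean of log ratios. Differences are of log2(CPM + 0.5), tested with limma and adjusted by Benjamini-Hochberg over all genes tested, and a gene is called higher or lower at an adjusted p under 0.05. On this scale the change of a low gene is understated.

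Replicate 2 of the E10.5 HLBs was left out, because 3932 of its 3943 otherwise expressed genes on 7 chromosomes, lost in whole or in part, were listed at 0. Meis3, Pbx4 and Pknox2 lie on the lost parts, so E10.5 HLBs have n = 2. The 26 libraries used held between 5543747 and 22142313 reads, as estimated from the worth of 1 read. Early limb buds had 19642275 or more and E10.5 limb buds 5908859 or fewer, so stage and depth of sequencing cannot be told apart between those groups. ES-derived libraries had 6569901 to 7879879, so culture and depth cannot be told apart against early limb buds either. The 6 heart muscle markers summed to 10167 CPM or more in Ca and to at most 14.7 CPM elsewhere, and the 6 tail bud markers to 247 CPM or more in TB and at most 6.07 CPM elsewhere. The 5 branchial arch markers summed to 446 CPM or more in BA and at most 52.7 CPM elsewhere. Tbx5, which marks forelimbs, had group means of 70.6 to 162 CPM in FLBs and ES-FLB and of 0.179 to 3.14 CPM in HLBs and ES-HLB, whereas Tbx4, which marks hindlimbs, had 56.1 to 169 CPM in HLBs and ES-HLB and 0.755 to 11.98 CPM in FLBs and ES-FLB. The markers thus followed the labels. Labels do not say whether replicates are separate embryos or cultures, so p-values measure the spread between these libraries, which may be technical. In bulk RNA, fewer cells that express a gene and less RNA per cell cannot be told apart.

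The genes are similar to each other where the homeodomain is encoded. The coding stretch of its recognition helix, which is known to lie in the major groove of DNA, is shown for all 8, since reads from it must be assigned between relatives. Sequences are 5′ to 3′ on the coding strand, from GENCODE transcripts on GRCm38, and the capitals mark the 17 of 48 bases that are identical in all 8:
Meis1: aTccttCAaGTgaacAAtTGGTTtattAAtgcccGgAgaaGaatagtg
Meis2: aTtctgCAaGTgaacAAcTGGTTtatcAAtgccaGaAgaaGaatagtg
Meis3: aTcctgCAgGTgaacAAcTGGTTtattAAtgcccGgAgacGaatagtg
Pbx2: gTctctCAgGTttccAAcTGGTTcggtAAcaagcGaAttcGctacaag
Pbx3: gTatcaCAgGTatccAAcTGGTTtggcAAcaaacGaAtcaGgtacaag
Pbx4: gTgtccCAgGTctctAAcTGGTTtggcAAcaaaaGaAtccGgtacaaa
Pknox1: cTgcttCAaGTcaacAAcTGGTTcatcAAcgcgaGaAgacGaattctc
Pknox2: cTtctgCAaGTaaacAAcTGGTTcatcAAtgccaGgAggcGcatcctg
Each stretch is exonic coding sequence and crosses an exon junction. That of Meis1 lies between 18885624 and 18905708 on the minus strand of chromosome 11, within the gene at 18880428 to 19019651, and that of Meis2 between 115868776 and 115921691 on the minus strand of chromosome 2, within the gene at 115861264 to 116067537 (RefSeq, GRCm38). That of Pbx2 lies between 34594709 and 34594839 on the plus strand of chromosome 17, and that of Pbx3 between 34178304 and 34204788 on the minus strand of chromosome 2. That of Pknox2 lies between 36894471 and 36895330 on the minus strand of chromosome 9, and that of Pknox1 between 31602843 and 31603214 on the plus strand of chromosome 17. Those of Meis3 and Pbx4 lie on plus strands, between 16183848 and 16184065 of chromosome 7 and between 69866595 and 69870067 of chromosome 8. Over the 189 bases of the homeobox, Meis1 and Meis2 were identical at 84.13%, Pbx2 and Pbx3 at 82.54% and Pknox1 and Pknox2 at 78.31%, whereas Meis1 and Pbx4 were identical at 44.44%. The longest run of identical bases between transcripts of any pair was 32, in Meis1 and Meis2. That run is shorter than the reads the study describes. The annotated gene spans of Pbx2 and Gpsm3 share 489 bases on the same strand, and Gpsm3 was at 7.91 CPM or less in every library. The annotation also places antisense genes over Meis1, Pbx3, Pknox1 and Pknox2, which were not analysed here. Libraries were stranded, but whether the counting used strand is not given in the sources used here.

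Levels of the 8 genes differed widely. Per kb of exon, Pbx2 had the highest group mean, at 89.4 CPM per kb in E10.5 HLBs, and Meis2 reached 76.6 in ES-FLB. Meis1 reached 33.4 in ES-FLB, Pbx3 29.8 in ES-FLB, Pknox2 22.0 in TB, Meis3 13.03 in ES-FLB and Pknox1 11.5 in ES-FLB. Pbx4 reached 1.65 CPM per kb in ES-HLB. It was counted with 3 to 23 reads per library, so its values carry the largest counting error. In each of the 6 comparisons of 2 groups that called Pbx4, only libraries of the higher group reached 1 CPM, the minimum for a test. No conclusion is drawn from those calls. For 5 of the 8 genes (Meis1, Meis2, Meis3, Pbx3 and Pknox1) the highest group mean was that of ES-FLB, whereas Pbx2 was lowest in the ES-derived groups and Pknox2 was highest in TB. From the highest to the lowest of the 9 group means, Pknox2 spanned 3.06 on the log2 scale, Meis3 2.02, Meis1 1.81, Pbx3 1.80, Pbx4 1.63, Meis2 1.54, Pbx2 0.90 and Pknox1 0.58. The median over the 10160 genes with a group mean of 16 CPM or more was 1.02.

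**Figure D1:**
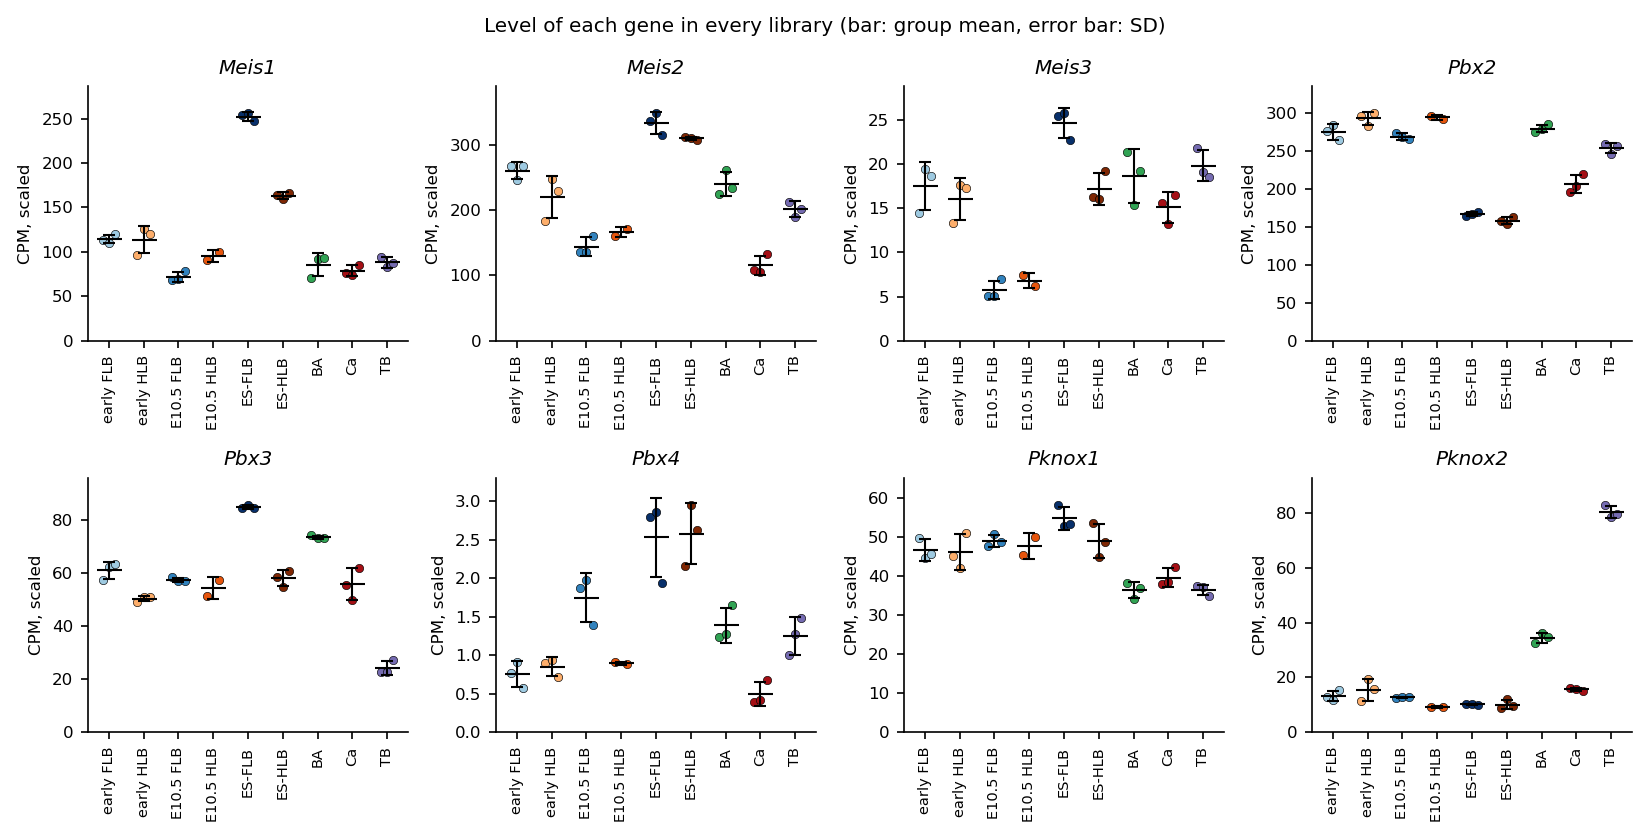
Scaled CPM of each gene (y axis, from 0) in every library of the 9 groups (x axis). Points are libraries, horizontal bars group means and error bars the SD (n = 3, and 2 for E10.5 HLB). Meis1 stands highest in ES-FLB (247 to 256 CPM), Pbx2 is lowest in both ES-derived groups and Pknox2 is highest in TB.

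To ask whether the genes differ between limb types, HLBs were compared with FLBs in culture, at the early stage and at E10.5. In culture, Meis1, Meis3 and Pbx3 were lower in ES-HLB than in ES-FLB, and no member was higher (3 of 8 tested, against 24.8% of all 13132 genes called, 12.3% higher and 12.4% lower). Meis1, a marker of the proximal limb bud, was at 254, 256 and 247 CPM in the 3 ES-FLB libraries and at 165, 159 and 166 CPM in the 3 ES-HLB libraries. The libraries did not overlap, and the difference was −0.63 ± 0.0437 (SE, adjusted p = 1.18e-13), 1.54-fold lower. Pbx3, a DNA-binding partner of Meis proteins, was at 84.5, 85.7 and 84.7 CPM in ES-FLB and at 58.5, 54.7 and 60.9 CPM in ES-HLB (difference −0.55 ± 0.0621, adjusted p = 1.21e-08). Meis3, the least expressed of the 3 Meis genes, was at 25.4, 25.8 and 22.7 CPM in ES-FLB and at 16.3, 16.04 and 19.2 CPM in ES-HLB (difference −0.51 ± 0.103, adjusted p = 0.00022). All ES-HLB libraries were below all ES-FLB libraries for each of the 3 genes. The share of all genes separated in this way was not counted, so the separation is given as a description. Meis2, another Meis gene, was at 337, 348 and 315 CPM in ES-FLB and at 312, 310 and 308 CPM in ES-HLB. This difference did not pass the test (−0.10, 95% interval −0.19 to −0.02, adjusted p = 0.0608). It did so without replicate 3 of ES-FLB (−0.14, adjusted p = 0.0222) and on deposited CPM (−0.10, adjusted p = 0.0486). For Pbx2 and Pknox1 the intervals were −0.17 to 0.02 and −0.31 to −0.01, and for the sparsely counted Pbx4 −0.43 to 0.49. Pknox1 was called lower without replicate 1 of ES-HLB (−0.22, adjusted p = 0.042).

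In the early limb buds, 1 of the 7 members tested differed between the limb types and was lower in HLBs, against 20.3% of 12516 genes called, 9.08% higher and 11.2% lower. A difference in stage between these groups cannot be told apart from limb type. Pbx3 was at 57.5, 62.2 and 63.6 CPM in early FLBs and at 49.1, 50.9 and 50.9 CPM in early HLBs (difference −0.28 ± 0.0587, adjusted p = 0.0069). The libraries did not overlap, but the share of all genes without overlap was not counted. Meis1 was at 113, 110 and 120 CPM in early FLBs and at 96.5, 125 and 120 CPM in early HLBs. The HLB libraries lay on both sides of the FLB libraries, with a difference of −0.02 (95% interval −0.23 to 0.19, adjusted p = 0.927). Meis2 was at 268, 246 and 268 CPM in early FLBs and at 184, 247 and 229 CPM in early HLBs (difference −0.25 ± 0.107, adjusted p = 0.146), with replicate 1 of the HLBs lowest. Without replicate 2 of the early HLBs, Meis2 was called lower (−0.34, adjusted p = 0.0324). Pbx4 did not pass the minimum of 1 CPM in 3 libraries and was not tested.

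At E10.5 the order of Meis1 was the other way round. It was at 68.3, 69.2 and 78.1 CPM in the FLBs and at 90.4 and 100 CPM in the 2 HLBs, so that the HLBs were higher by 0.41 ± 0.0725 (adjusted p = 1.65e-05). In all, 3 of 8 members were higher in the HLBs and 1 was lower, against 24.8% of 12574 genes called, 13.3% of them higher and 11.5% lower. Meis2 was at 136, 135 and 161 CPM in the FLBs and at 161 and 171 CPM in the HLBs (difference 0.21 ± 0.0618, adjusted p = 0.01), with 1 FLB library level with an HLB library. Pbx2 was at 274, 268 and 265 CPM in the FLBs and at 297 and 292 CPM in the HLBs (difference 0.13 ± 0.0465, adjusted p = 0.0335). Pknox2, the member that stands out in TB, was at 12.6, 12.7 and 13.01 CPM in the FLBs and at 9.07 and 9.36 CPM in the HLBs (difference −0.45 ± 0.162, adjusted p = 0.034). Of these 4 calls that of Meis1 held in each of the 5 fits that left out 1 library, but not in limma without trend and robust settings (adjusted p = 0.0684). The calls of Pbx2 and Pknox2 were lost without any single library of the 5, and that of Meis2 was lost without replicate 3 of the HLBs (adjusted p = 0.0833) and without replicate 1 (0.084) or 2 (0.069) of the FLBs.

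**Figure D2:**
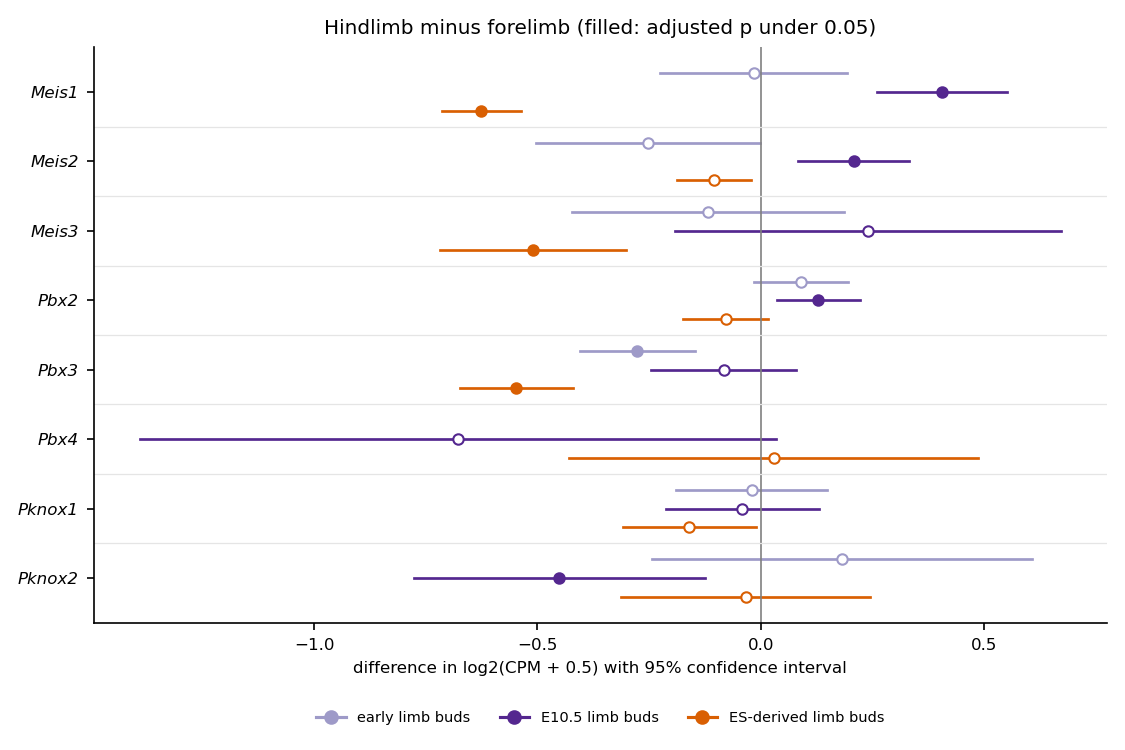
Hindlimb minus forelimb difference in log2(CPM + 0.5) of each gene (x axis) in early limb buds, E10.5 limb buds and ES-derived limb buds. Points are limma estimates, lines 95% confidence intervals and filled points have an adjusted p under 0.05. For Meis1 the ES-derived difference lies at −0.63 and the E10.5 difference at 0.41.

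The difference between culture and embryo in the size of the limb-type effect was tested directly, as the ES-HLB minus ES-FLB difference against the early HLB minus early FLB difference, in which limb type and stage cannot be told apart. Meis1 had a more negative limb-type difference in culture than in the early embryo, by −0.61 ± 0.0997 (adjusted p = 0.000216), and Pbx3 by −0.27 ± 0.0836 (adjusted p = 0.0223). These were 2 of 8 members tested, both in the lower direction, against 22.5% of 13616 genes, 12.5% higher and 10% lower. The call of Pbx3 was lost without replicate 2 of ES-HLB (adjusted p = 0.0583) or replicate 1 of the early FLBs (0.0733). For Meis2 the estimate was 0.15 with a 95% interval of −0.11 to 0.41, and for Meis3 −0.39 with an interval of −0.75 to −0.03 (adjusted p = 0.114). The 2 cultures differed by addition of retinoic acid or its antagonist as well as by limb type, and these cannot be told apart. Beside Meis1, the retinoic acid-forming enzyme Aldh1a2 was at 164 to 176 CPM in ES-FLB and 29.3 to 32.6 CPM in ES-HLB. The retinoic acid-degrading enzyme Cyp26a1 was at 0.243 to 0.911 CPM in ES-FLB and 5.13 to 6.75 CPM in ES-HLB. In early limb buds Aldh1a2 was at 41.4 to 46.4 CPM in the FLBs and 42.4 to 77.4 CPM in the HLBs, and at E10.5 at 6.47 to 7.43 CPM and 15.6 to 24.7 CPM. The part of these genes in the difference of Meis1 was not tested.

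In FLBs all 3 Meis genes fell between the early stage and E10.5. Meis3 went from 14.4, 19.5 and 18.6 CPM to 5.11, 5.12 and 6.94 CPM (difference −1.53 ± 0.148, adjusted p = 7.23e-08). Meis2 was at 136 to 161 CPM at E10.5 against 246 to 268 CPM (difference −0.86 ± 0.0636, adjusted p = 2.87e-08), and Meis1 at 68.3 to 78.1 CPM against 110 to 120 CPM (difference −0.67 ± 0.0608, adjusted p = 2.73e-08). The libraries of the 2 stages did not overlap for any Meis gene, but the share of all genes without overlap was not counted. Pbx4 was higher at E10.5, at 1.87, 1.98 and 1.39 CPM against 0.773, 0.913 and 0.574 CPM (difference 0.84 ± 0.244, adjusted p = 0.00563), which rests on 8 to 12 reads per E10.5 library. It reached 1 CPM only in the E10.5 libraries and entered the test through them, so no conclusion is drawn from its call. In total 1 of 8 members was higher and 3 were lower in FLBs, against 65.1% of 12779 genes called, 29% higher and 36.1% lower, so most genes differed between these library sets. For Pbx2, Pbx3 and Pknox1 the differences were −0.03, −0.08 and 0.07 and did not pass the test. The deposited CPM without the trimmed-mean scaling shifted the median of all genes by 0.185 in this comparison, and on it Pbx2 (0.16, adjusted p = 0.00163) and Pknox1 (0.26, adjusted p = 0.00335) were called higher at E10.5.

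In HLBs, 3 of 7 members tested were lower at E10.5 and none was higher (29% of 12401 genes called, 11.5% higher and 17.6% lower). Meis3 was at 7.44 and 6.18 CPM at E10.5 against 13.4, 17.6 and 17.3 CPM (difference −1.18 ± 0.156, adjusted p = 0.000426). Pknox2 was at 9.07 and 9.36 CPM against 11.4, 19.3 and 15.7 CPM (difference −0.69 ± 0.188, adjusted p = 0.0212), and Meis2 at 161 and 171 CPM against 184, 247 and 229 CPM (difference −0.40 ± 0.119, adjusted p = 0.0448). The 5 libraries did not overlap for these 3 genes, but the share of all genes without overlap was not counted. The calls of Pknox2 and Meis2 were lost without replicate 1 or 3 of the E10.5 HLBs or replicate 3 of the early HLBs. Meis1 differed by −0.25 (95% interval −0.50 to 0.00, adjusted p = 0.125). Without replicate 1 of the early HLBs, which at 96.5 CPM was the lowest of its group, Meis1 was called lower (−0.36, adjusted p = 0.0011).

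The stage difference was also compared between limb types, although by the study's text the early HLBs were nearer in stage to the E10.5 limb buds than the early FLBs were, so that limb type and the length of the interval cannot be told apart. That of Meis1 was less negative in HLBs than in FLBs by 0.42 ± 0.128 (adjusted p = 0.0272), and that of Pknox2 more negative by −0.63 ± 0.221 (adjusted p = 0.0449), which makes 2 of 8 members against 23.3% of 12992 genes, 13% higher and 10.2% lower. For Meis2 the estimate was 0.46 ± 0.159 (adjusted p = 0.0645). The call of Meis1 was lost without replicate 3 of the E10.5 HLBs (adjusted p = 0.125), replicate 1 (0.0675) or 2 (0.0658) of the E10.5 FLBs or replicate 3 of the early FLBs (0.0564). That of Pknox2 was lost without replicate 1 (0.132) or 3 (0.0975) of the E10.5 HLBs, any E10.5 FLB library (0.0711, 0.0747 and 0.087), replicate 2 (0.111) or 3 (0.0828) of the early HLBs, or replicate 1 (0.0868) or 2 (0.109) of the early FLBs. Genes of the distal limb bud (13 listed, such as Hoxa13 and Hoxd13) summed to 682 to 915 CPM in early FLBs and 1158 to 1209 CPM in E10.5 FLBs, and to 935 to 1126 CPM and 1182 to 1214 CPM in the HLBs. The sums hide members that went the other way. In FLBs 7 of the 13 were higher at E10.5 and 4 lower, among the latter Msx1 (mean 215 to 104 CPM), Hoxd9 (174 to 69.0 CPM) and Lhx2 (114 to 76.5 CPM), and in HLBs 6 were higher and 3 lower, against the shares of all genes given above for these comparisons. Their part in the stage differences of the Meis genes was not tested.

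**Figure D3:**
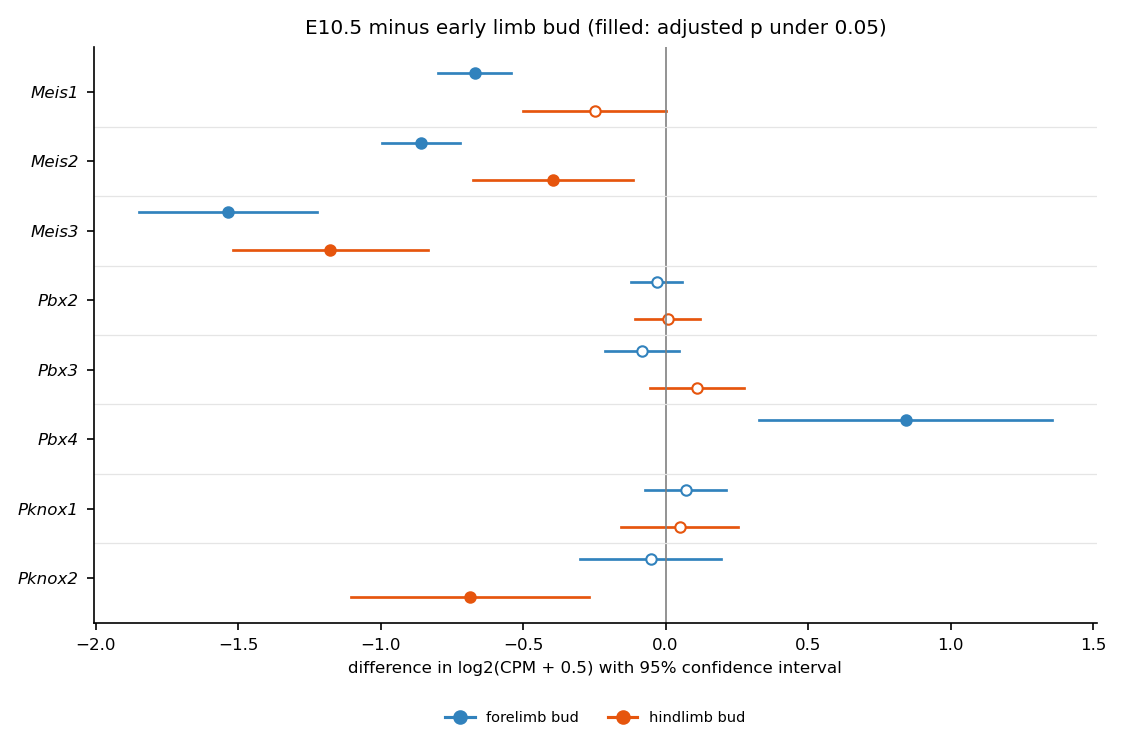
E10.5 minus early difference in log2(CPM + 0.5) of each gene (x axis) in forelimb and hindlimb buds, with 95% confidence intervals as lines and filled points for an adjusted p under 0.05. Meis3 lies at −1.53 in FLBs and −1.18 in HLBs, and Pbx2 lies close to 0 in both.

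ES-derived cells were compared with limb buds of the same type to ask how the genes stand in culture. Against the early FLBs, from which they also differed in depth of sequencing, all 8 members differed in ES-FLB libraries, 6 higher and 2 lower. The background was high, as 82.1% of 13122 genes were called, 40.3% higher and 41.8% lower, so the count itself says little about these genes. Meis1 was at 247 to 256 CPM in ES-FLB against 110 to 120 CPM, a difference of 1.14 ± 0.0466 (adjusted p = 9.94e-13). Pbx4 was at 2.80, 2.86 and 1.94 CPM against 0.574 to 0.913 CPM (difference 1.27 ± 0.209, adjusted p = 3.07e-05). It entered the test only through the ES-FLB libraries, so no conclusion is drawn from its call. Meis3 (difference 0.49), Pbx3 (0.47), Meis2 (0.35) and Pknox1 (0.23) were also higher. Pbx2, the most abundant Pbx gene here, was at 164, 167 and 170 CPM in ES-FLB against 276, 285 and 265 CPM in early FLBs, and fell by 0.72 ± 0.0438 (adjusted p = 1.4e-10). Pknox2 fell by 0.35 ± 0.117 (adjusted p = 0.0108), a call that was lost without replicate 3 of the early FLBs (adjusted p = 0.0801) and on deposited CPM (0.346).

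In ES-HLB, 4 of 8 members were higher and 2 lower than in the early HLBs, against 78.3% of 13179 genes called, 38.5% higher and 39.9% lower. Pbx2 was at 158, 154 and 163 CPM against 296, 284 and 300 CPM (difference −0.89 ± 0.0482, adjusted p = 2.67e-10). Meis1 was at 159 to 166 CPM against 96.5 to 125 CPM (difference 0.53 ± 0.084, adjusted p = 0.000119), and Meis2 at 308 to 312 CPM against 184 to 247 CPM (difference 0.50 ± 0.0966, adjusted p = 0.00121). Pbx4 was higher by 1.18 ± 0.201 (adjusted p = 6.61e-05). Only its ES-HLB libraries reached 1 CPM, so it left the test without any 1 of them. No conclusion is drawn from its call. Pbx3 was higher by 0.20 ± 0.0659 (adjusted p = 0.0109) and Pknox2 lower by −0.57 ± 0.176 (adjusted p = 0.0103). Without replicate 3 of ES-HLB the calls of Pbx3 (adjusted p = 0.055) and Pknox2 (0.0507) were lost, and without replicate 1 that of Pknox2 (0.056). Meis3 and Pknox1 had intervals of −0.16 to 0.36 and −0.09 to 0.27. On deposited CPM both were called higher (Meis3 0.28, adjusted p = 0.043, and Pknox1 0.28, adjusted p = 0.00809), and the call of Pknox2 was lost (adjusted p = 0.058).

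Against the E10.5 limb buds the estimated differences of the Meis genes were larger than against the early limb buds. With the ES-derived libraries shared, this restates the stage difference, which for Meis1 in HLBs did not pass the test. Meis3 was at 22.7 to 25.8 CPM in ES-FLB and at 5.11 to 6.94 CPM in E10.5 FLBs (difference 2.02 ± 0.138, adjusted p = 3.83e-13, 4.07-fold). Meis1 was higher by 1.81 ± 0.0519 (adjusted p = 1.85e-21) and Meis2 by 1.21 ± 0.0599 (adjusted p = 3.87e-11). Altogether 5 of 8 members were higher and 2 lower, against 71.8% of 13174 genes, 35.7% higher and 36% lower. Pbx3 (difference 0.56) was higher, Pbx2 (−0.69) was lower, and the weaker calls of Pknox1 (0.16, adjusted p = 0.0439) and Pknox2 (−0.30, adjusted p = 0.0378) were lost without 1 library in 4 and in 6 of 6 such fits. In ES-HLB against E10.5 HLBs, Meis3 was higher by 1.28 ± 0.153, Pbx4 by 1.14 ± 0.284, Meis2 by 0.90 ± 0.0518 and Meis1 by 0.78 ± 0.0623, and Pbx2 was lower by −0.90 ± 0.0539. These were 4 of 8 members higher and 1 lower, against 71.9% of 12912 genes, 36.5% higher and 35.4% lower. Among them, Pbx4 reached 1 CPM only in the ES-HLB libraries, and no conclusion is drawn from its call. The fits against early and E10.5 limb buds share the ES-derived libraries. Scaling matters for these comparisons, since deposited CPM shifted the median of all genes by 0.238 for ES-FLB and 0.185 for ES-HLB against early limb buds, and by 0.0511 and 0.116 against E10.5 limb buds. On deposited CPM Pbx2 was still lower in both ES-derived groups, and Meis1 and Meis2 higher. Other calls changed on it. Pbx3 was called higher in ES-HLB than in E10.5 HLBs (0.21, adjusted p = 0.0199), and Pknox2 was no longer called in ES-FLB against E10.5 FLBs (adjusted p = 0.0813).

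**Figure D4:**
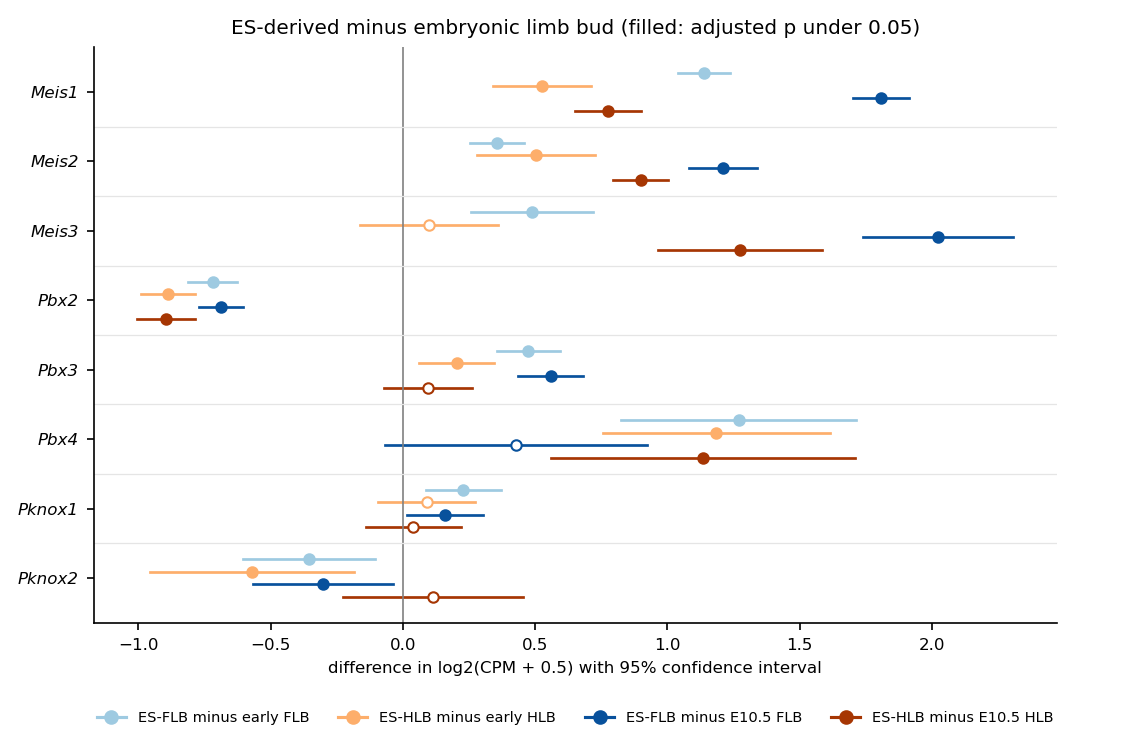
ES-derived minus embryonic difference in log2(CPM + 0.5) of each gene (x axis) against early and E10.5 limb buds of the same type, with 95% confidence intervals as lines and filled points for an adjusted p under 0.05. Meis1 and Meis2 lie above 0 and Pbx2 below 0 in all 4 comparisons.

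The sorted cells and the dissected buds differ in the cells they hold. The 5 endothelial markers summed to 23.1 to 41.5 CPM in the ES-derived groups and 269 to 375 CPM in the limb buds, the 5 embryonic blood markers to 2.78 to 130 CPM and 1403 to 3933 CPM, and the 6 epithelial markers to 66.6 to 137 CPM and 183 to 426 CPM. No marker of these 3 lists was at 0 in every library of either ES-derived group. The 13 distal limb bud genes summed to 122 to 132 CPM in ES-FLB and 295 to 316 CPM in ES-HLB. The 10 neural markers summed to 64.6 to 86.3 CPM in the ES-derived groups and 15.2 to 23.8 CPM in the limb buds, and the 5 pluripotent cell markers to 14.4 to 78.1 CPM and 0.544 to 1.87 CPM. The part of these cells in the differences of the 8 genes was not tested.

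Among E10.5 tissues, TB had the highest Pknox2, at 83.1, 78.7 and 79.9 CPM, and the lowest Pbx3, at 22.6, 22.8 and 27.1 CPM. Pknox2 was higher in TB than in E10.5 FLBs by 2.61 ± 0.0821 (adjusted p = 1.42e-23), than in E10.5 HLBs by 3.06 ± 0.0909 (adjusted p = 3.74e-24) and than in BA by 1.21 ± 0.0662 (adjusted p = 7.93e-12). No TB library overlapped a library of another group for either gene, but the share of all genes set apart in this way was not counted. Pbx3 was lower in TB by −1.24 ± 0.0821 against E10.5 FLBs, by −1.16 ± 0.0986 against E10.5 HLBs and by −1.59 ± 0.0775 against BA. Against E10.5 FLBs, 4 of 8 members were higher and 2 lower in TB (49.2% of 13086 genes called, 25% higher and 24.2% lower), and against E10.5 HLBs 3 of 7 tested were higher and 3 lower (42.9% of 12826, 20.9% higher and 21.9% lower). Of 4 muscle precursor markers 2 were higher and 2 lower in TB than in E10.5 FLBs (median difference −1.11). Their sum of 91.2 to 103 CPM in TB, against 36.8 to 41.3 CPM in E10.5 FLBs, was mostly Pax3 (mean 83.8 against 17.0 CPM), which neural cells also express, whereas Lbx1 (0.462 against 6.40 CPM) and Myod1 (0.363 against 8.91 CPM) were lower. The 10 neural markers summed to 168 to 202 CPM in TB. Their part in the level of Pknox2 was not tested.

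BA came next in Pknox2, at 32.5, 36.2 and 34.6 CPM, higher than in E10.5 FLBs by 1.39 ± 0.0997 (adjusted p = 2.42e-11). Against E10.5 FLBs, 4 of 8 members were higher in BA and 1 lower, against 21.3% of 12913 genes, 11% higher and 10.3% lower. Meis3 was at 21.4, 15.3 and 19.3 CPM in BA (difference 1.62 ± 0.155, adjusted p = 6.02e-09), Meis2 at 225, 261 and 234 CPM (difference 0.74 ± 0.0674, adjusted p = 3e-07) and Pbx3 at 73.2 to 74.2 CPM (difference 0.35 ± 0.0624, adjusted p = 0.000115). Pknox1, the more evenly expressed Pknox gene, was lower in BA at 34.1 to 38.2 CPM against 47.7 to 50.9 CPM (difference −0.42 ± 0.0763, adjusted p = 0.000131). Meis1 was at 70.9, 92.6 and 93.5 CPM in BA and was not called (0.24, 95% interval 0.03 to 0.46, adjusted p = 0.108). Without replicate 1 of BA it was called higher (0.37, adjusted p = 0.000305). In that replicate the 10 neural markers summed to 240 CPM, against 56.4 and 140 CPM in replicates 2 and 3, and their part in the level of Meis1 was not tested.

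In Ca, 2 of 8 members were higher and 4 lower than in E10.5 FLBs, against 75.4% of 13308 genes, 37.3% higher and 38% lower. The comparisons of BA, Ca and TB with E10.5 FLBs share the same 3 FLB libraries. Deposited CPM shifted the median by −0.121 against E10.5 FLBs and by −0.134 against BA. Ca had the lowest Meis2, at 109, 105 and 132 CPM (difference −0.32 ± 0.097, adjusted p = 0.0125), a call that was lost without replicate 1 of Ca (adjusted p = 0.0668). Pbx2 was at 196 to 219 CPM in Ca (difference −0.38 ± 0.0498, adjusted p = 4.48e-06), and Meis3 at 13.2 to 16.5 CPM was higher than in E10.5 FLBs (1.33 ± 0.166, adjusted p = 2.69e-06). Pknox1 was lower in Ca by −0.30 ± 0.0764 (adjusted p = 0.00205), and Pknox2 higher by 0.28 ± 0.119 (adjusted p = 0.0442), a call lost without any 1 of the 6 libraries. Pbx4 was at 0.391, 0.421 and 0.683 CPM in Ca, which is 3, 3 and 5 reads, near the floor of 3 reads, and its fitted difference of −1.17 depends on the pseudocount. It entered this test only through the FLB libraries, and no conclusion is drawn from its call. Against BA, 5 of 8 members were lower in Ca and none was higher (74.7% of 13359 genes called, 37.1% higher and 37.6% lower), among them Pknox2 by −1.12 ± 0.0933 and Meis2 by −1.06 ± 0.0893. Pbx4 was also among these 5 and reached 1 CPM only in the BA libraries, so no conclusion is drawn from its call. Between TB and BA, 1 member was higher and 3 lower in TB (47.7% of 13146, 24.1% higher and 23.6% lower). Meis2 (−0.25) and Pbx2 (−0.14) were lower beside Pbx3, and the call of Pbx2 was lost without replicate 2 of TB (adjusted p = 0.0852).

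Both ES-derived groups together were also set against BA, Ca and TB in a fit of all 26 libraries. Meis1 was higher in culture by 1.25 ± 0.0808 than in BA, 1.36 ± 0.0808 than in Ca and 1.20 ± 0.0808 than in TB, and Pbx2 was lower by −0.78 ± 0.037, −0.34 ± 0.037 and −0.64 ± 0.037. Pknox2 was lower by −1.71 ± 0.109, −0.60 ± 0.109 and −2.93 ± 0.109. Against BA 4 members were higher and 2 lower (69.5% of 14432 genes called, 34.2% higher and 35.3% lower). Against Ca they were 6 and 2 (81%, 41.7% and 39.3%), and against TB 5 and 2 (76.1%, 37.4% and 38.7%). Meis3 passed the test against Ca (0.44, adjusted p = 0.0015) but not against BA (0.15, adjusted p = 0.278) or TB (0.05, adjusted p = 0.697).

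The order of the groups could be resolved only in part. How many of all genes show such gaps between groups was not counted, so the order is given as a description. For Meis1, ES-FLB stood above ES-HLB and ES-HLB above all embryonic groups with no overlap of libraries, but neighbours overlapped from early FLBs (mean 115 CPM) down to E10.5 FLBs (71.9 CPM). For Meis2, ES-FLB (333 CPM), ES-HLB (310 CPM) and early FLBs (260 CPM) did not overlap each other, whereas early FLBs, BA, early HLBs and TB (202 CPM) overlapped in turn. For Meis3, ES-FLB (24.6 CPM) stood apart at the top and both E10.5 limb buds (6.81 and 5.72 CPM) at the bottom, and the 6 groups between them overlapped as neighbours. For Pbx2 the 4 limb buds and BA lay between 269 and 295 CPM with overlapping neighbours, followed without overlap by TB (254 CPM), Ca (207 CPM), ES-FLB (167 CPM) and ES-HLB (158 CPM). For Pbx3, ES-FLB (85.0 CPM) and BA (73.5 CPM) stood apart at the top and TB at the bottom. Pbx4 ran from ES-HLB (2.58 CPM) to TB (1.25 CPM) with overlapping neighbours, and then, after a gap, from E10.5 HLBs (0.895 CPM) to Ca (0.498 CPM). For Pknox2, TB (80.6 CPM) and BA (34.4 CPM) stood apart from 7 groups at 9.22 to 15.6 CPM. Pknox1 showed overlap between neighbours from ES-FLB (54.9 CPM) to Ca (39.7 CPM), with TB and BA at 36.5 CPM.

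The balance within families was measured as a ratio of CPM per kb of exon inside each library, which is free of the scaling between libraries. Meis1 to Meis2 was 0.435, 0.424 and 0.451 in ES-FLB and 0.304, 0.296 and 0.311 in ES-HLB, where it overlapped the 0.292 to 0.302 of the early HLBs. Early FLBs were at 0.243 to 0.259, E10.5 FLBs at 0.280 to 0.294 and E10.5 HLBs at 0.324 and 0.337. The HLBs were thus above the FLBs in embryos at both stages, with no overlap, and below them in culture. BA had the lowest ratio (0.182 to 0.230), and Ca (0.373 to 0.408) was the only other group above 0.34. With 3 libraries against 3 an exact permutation test cannot go below p = 0.10, so these ratios are given as values.

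Pbx3 to Pbx2 was 0.576 to 0.595 in ES-FLB and 0.411 to 0.432 in ES-HLB, above every embryonic library, among which Ca had the highest mean (0.283 to 0.327) and TB lowest (0.101 to 0.122). Pknox2 to Pknox1 was 2.75 to 2.97 in TB and 1.11 to 1.38 in BA, the 2 groups in which Pknox2 was the more abundant of the pair. It was between 0.216 and 0.594 in all other libraries. Summed per kb, the Meis genes ranged from 44.9 ± 4.95 (SD, n = 3) in Ca and 45.6 ± 4.59 in E10.5 FLBs to 123.1 ± 5.37 in ES-FLB. The 3 Pbx genes ranged from 70.0 ± 2.37 in ES-HLB to 112 ± 1.56 in BA. The sum over all 8 genes ranged from 140.1 ± 10.49 in Ca to 219 ± 5.37 in ES-FLB, and was 203 ± 0.844 in early FLBs.

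**Figure D5:**
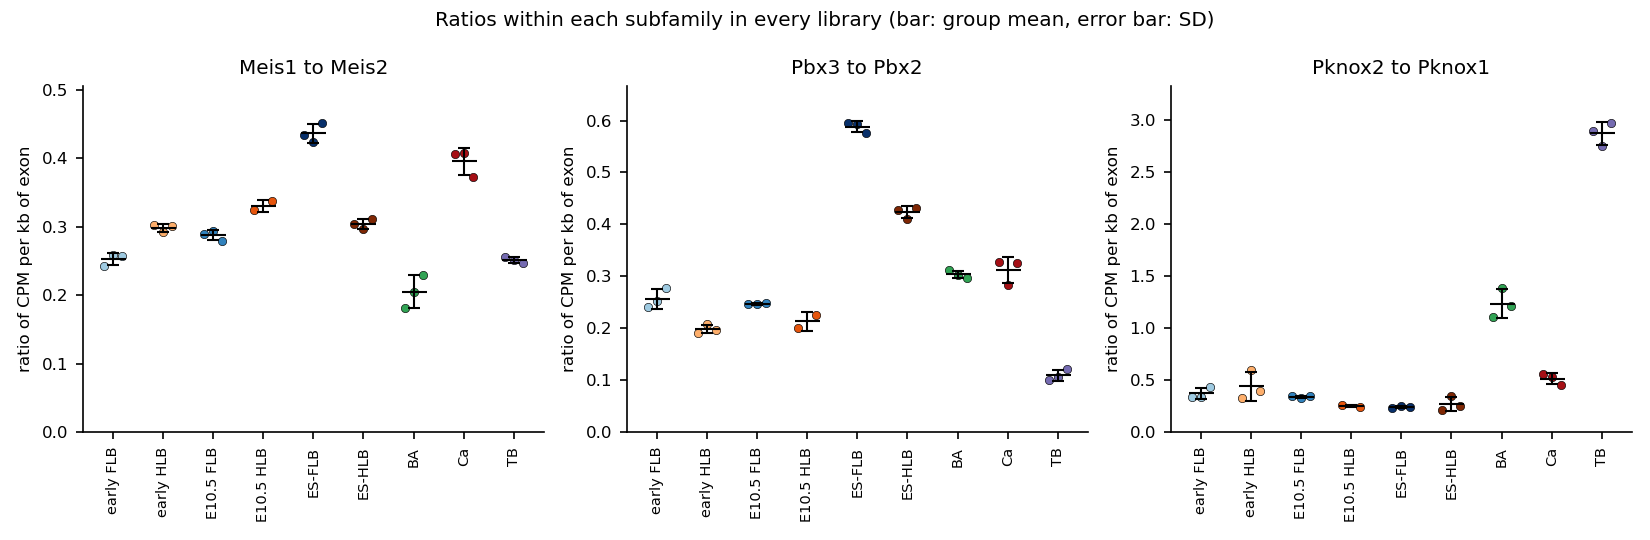
Ratios of CPM per kb of exon within each library (y axes, from 0) for Meis1 to Meis2, Pbx3 to Pbx2 and Pknox2 to Pknox1 in the 9 groups. Points are libraries, horizontal bars means and error bars the SD. Meis1 to Meis2 and Pbx3 to Pbx2 are highest in ES-FLB, and Pknox2 to Pknox1 exceeds 1 in BA and TB.

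Other genes of the class and of the pathways around it were counted in the same comparisons. Among 9 other TALE homeobox genes (Irx, Mkx and Tgif), 4 of 8 tested were higher in ES-HLB than in ES-FLB and 0 lower, where 12.3% of all genes were higher and 12.4% lower: Irx3 (1.13), Irx1 (0.84), Irx5 (0.69) and Mkx (0.65). Against early limb buds, 5 of 8 were higher and 3 lower in ES-FLB and 7 of 9 higher and 2 lower in ES-HLB, led in both by Irx1 (2.71 and 4.46). Of all genes 40.3% were higher and 41.8% lower in ES-FLB, and 38.5% and 39.9% in ES-HLB. Of the 16 retinoic acid pathway genes, 4 of 15 tested were higher and 7 lower in ES-HLB than in ES-FLB, beside the same 12.3% and 12.4% of all genes. The largest changes were those of Dhrs3 (2.71), an enzyme that reduces retinal, Cyp26a1 (2.47), Aldh1a2 (−2.44) and the related Aldh1a3 (−0.95). Of the 13 distal limb bud genes, 10 were higher and 1 lower in ES-HLB, with Hoxa11 at 2.47, Hoxd13 at 2.47, Hoxd10 at 2.38 and Hoxd12 at 2.12. Their median difference was 1.55, against −0.0029 over all genes and −0.13 over the 8 members. Against the early limb buds 9 of 11 distal genes tested were lower in ES-FLB and 11 of 13 in ES-HLB, and none was higher, where 41.8% and 39.9% of all genes were lower. In embryos, 4 of 14 retinoic acid genes tested were higher and 3 lower in HLBs than in FLBs at the early stage, and 4 and 4 at E10.5. Among the 13 distal genes, 7 were higher and 2 lower in HLBs at the early stage (median difference 1.42). At E10.5 these counts were 5 and 7 (median difference −0.33). Of all genes 9.08% were higher and 11.2% lower at the early stage, and 13.3% and 11.5% at E10.5.

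For members that spanned 1 or more on the log2 scale, the genes whose 9 group means were most alike were found by Pearson's r among 5215 expressed genes with as wide a span. Meis1 was most like Cyp1b1 (r = 0.967), a monooxygenase that can oxidize retinol, followed by Junb (0.952), which had a group mean of 150 CPM in ES-FLB, 73.2 CPM in ES-HLB and at most 15.9 CPM elsewhere. Meis2 was most like Cenpn (0.970), a centromere protein, 4933407C03Rik (0.955) and Rufy2 (0.948). Pbx3 was most like Hand2 (0.887), Phldb2 (0.885) and Unc5c (0.859). Hand2, whose reporter served to sort the ES-derived cells, had a group mean of 2.03 CPM in TB, where Pbx3 was lowest, and of 88.9 CPM or more elsewhere. Pknox2 was alike to Celsr2 (0.956) and Nedd9 (0.903). Pbx4 was most like Zfp329 (0.988), Dnm3os (0.984) and Tia1 (0.977), and Meis3 was most like Nefl (0.891), Snx30 (0.884) and Rps27 (0.881). Rps27, a ribosomal protein gene, was at 32.7 to 336 CPM in the E10.5 limb buds, where Meis3 was lowest, and at 383 to 566 CPM in every other library. Its spread within those groups was wide, and its part in the low level of Meis3 there was not tested. Each r rests on 9 means that share the same libraries, and is given as a description.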

How the data were processed

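The authors sequenced stranded mRNA libraries (TruSeq) and aligned the reads to mm10 with HISAT2 2.0.4. The submitters' processing notes also name FastQC 0.11.5, Cuffdiff, Cufflinks 2.1.1 and edgeR 3.16.2, without roles. The deposited table holds CPM of 23279 genes in 27 libraries (9 groups of 3), each column summing to 1000000. Low values are mostly whole multiples of what 1 read is worth (94.0% to 99.0% of values under 50 reads, within 0.02 reads), which gave the depths of 5543747 to 22142313 reads and a floor of 3 reads at 0.135 to 0.541 CPM. Intervals and floors of single libraries cover counting error only.

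Between the 26 libraries, CPM were scaled by trimmed means of log ratios without weights (30% of ratios and 5% of intensities trimmed at each end; factors 0.891 to 1.08). A gene entered a comparison if 3 or more of its libraries reached 1 CPM. Tests used limma 3.58.1 (R 4.3.3, trend and robust settings) on log2(CPM + 0.5), and the script was first tested on simulated data. Calls have an adjusted p under 0.05. Comparisons of 2 groups and both interactions were fitted on their own groups, and culture against BA, Ca and TB on all 26 libraries. Exon lengths, transcripts and homeobox coordinates are from GENCODE, and gene positions from RefSeq, both on GRCm38. All 8 genes were named in every comparison, with up to 4 of the called genes of the largest change from the other TALE, retinoic acid and distal limb bud lists and up to 3 genes most alike in group means. Some of the genes most alike are not reported here. The members and lists were chosen with earlier results of these data known. Alternatives were deposited CPM, a pseudocount of 1, no filter, other limma settings, other samples in the fit, a replicate block, a threshold of 0.001 and each library left out.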

Additional observations from a re-analysis of the deposited data

Results flagged for a closer look

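In 4 results the same contrast differed between 2 settings by a test of the difference itself (limma, Benjamini-Hochberg adjustment over all genes). The hindlimb minus forelimb difference was more negative in culture than in early embryos for Meis1, by −0.61 ± 0.0997 (adjusted p = 0.000216), and for Pbx3, by −0.27 ± 0.0836 (adjusted p = 0.0223). The E10.5 minus early difference was less negative in HLBs than in FLBs for Meis1, by 0.42 ± 0.128 (adjusted p = 0.0272), and more negative for Pknox2, by −0.63 ± 0.221 (adjusted p = 0.0449). All 4 use the early HLBs and FLBs, whose limb type and stage cannot be told apart. All but that of Meis1 for limb type were lost in some fits that left out 1 library, as given above. Both calls of the stage difference were also lost without the filter and without trend and robust settings. Groups of 3 libraries were too small for a search for single libraries that stand apart.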

How the results depend on the processing

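Over the 8 genes in 20 comparisons, 2038 of 2185 alternative values kept direction and side of the threshold, 114 were no longer past it, 32 became so and 1 reversed, namely Pbx2 in E10.5 against early FLBs (0.16 on deposited CPM, adjusted p = 0.00163). Settings in which a gene was no longer tested are outside this tally, such as Pbx4 with a library of its higher group left out, so it understates lost calls. On deposited CPM 2 members were called instead of 1 in early HLBs against FLBs, 2 instead of 4 in E10.5 HLBs against FLBs, and 1 instead of 2 for the difference of the stage effect between limb types. Without trend and robust settings 1 was called in E10.5 HLBs against FLBs, 1 instead of 3 in E10.5 against early HLBs and 1 for the stage interaction. Without the filter limma called 0 for the stage interaction (4 at an unadjusted p under 0.05). At a threshold of 0.001 limma called 0 in early HLBs against FLBs (2 unadjusted; 3.26% of all genes called) and 0 for the stage interaction (4 unadjusted; 4.33%). It called 1 in E10.5 HLBs against FLBs (9.9% of all genes), 1 in E10.5 against early HLBs (4.77%), 3 instead of 6 in ES-HLB against early HLBs (60%), 2 instead of 6 in Ca against E10.5 FLBs (54.3%), 2 instead of 4 in TB against BA (24.4%) and 1 instead of 2 for the limb-type interaction (6.78%).

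With 1 library left out, the counts ranged from 1 to 2 in early HLBs against FLBs, 1 to 2 in E10.5 HLBs against FLBs, 3 to 4 in ES-HLB against ES-FLB, 3 to 4 in E10.5 against early FLBs and 1 to 4 in E10.5 against early HLBs. They ranged from 7 to 8 in ES-FLB against early FLBs, 3 to 6 in ES-HLB against early HLBs, 5 to 6 in ES-FLB against E10.5 FLBs and 4 to 5 in ES-HLB against E10.5 HLBs. They ranged from 5 to 6 in BA, 4 to 5 in Ca and 6 to 6 in TB against E10.5 FLBs, were 6 in TB against E10.5 HLBs, and ranged from 4 to 6 in Ca against BA and 3 to 4 in TB against BA. Where Pbx4 was called between 2 groups, it left the test without any 1 library of its higher group and so dropped out of these counts. The limb-type interaction gave 1 to 3, the stage interaction 0 to 3, and culture against BA, Ca and TB 6, 8 and 7. Calls were gained for Meis3 in the limb-type interaction without replicate 1 of the early HLBs (−0.51, adjusted p = 0.0251) and for Pbx2 there without replicate 2 of the early HLBs (0.0435) or FLBs (0.0404). They were gained for Meis2 in the stage interaction without replicate 1 (0.0194) or 2 (0.0132) of the early HLBs or replicate 3 of the E10.5 FLBs (0.0286). They were gained for Meis1 in Ca against BA without replicate 1 of BA (0.0177) and in Ca against E10.5 FLBs without replicate 3 of the FLBs (0.0413), and for Meis3 in Ca against BA without replicate 3 of Ca (0.0412) or 2 of BA (0.0145).

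Replicate numbers did not pair the libraries: correlations of same-numbered deviations ran from −0.0883 to 0.126, and in 0 of 36 pairs of groups did every one exceed 0.1. With the replicate number as a block, 3 members were called in E10.5 HLBs against FLBs, 4 in ES-HLB against ES-FLB, 5 in ES-FLB against E10.5 FLBs, 6 in BA and 5 in Ca against E10.5 FLBs and 6 in Ca against BA, and the other 14 counts were as without it. A count test on recovered reads was planned and not run, because the values between whole reads left the reads uncertain. Pbx4 rests on 3 to 23 reads per library, and E10.5 HLBs on 2 libraries. The cause of each change was not tested.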
